A study of Mus musculus with 14 samples.

Results

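Of the 37793 peaks of the C/EBP factor Cebpb on autosomes and chromosome X, 8916 shared no base with any peak of its relative Cebpa. They made up 23.6% of the list (95% interval 23.2 to 24.0) and are called members below. The other 28877 Cebpb peaks, which overlapped a Cebpa peak by at least 1 bp, are called the rest. Members were chosen by the positions of the Cebpb and Cebpa peaks alone, so the share itself and every distance to Cebpa are descriptions. Intervals of shares are exact (Clopper-Pearson) binomial 95% intervals, and all intervals cover counting error only.

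The peaks came from ChIP-seq, in which DNA bound by a factor is pulled down with an antibody and sequenced. The cells were Hoxb8-FL, a mouse line labelled LMPP-like (lymphoid-primed multipotent progenitor), which received no treatment. The medium held estradiol and an additive given as FLT3, which is the name of a receptor. The growth additives were shared by every library. Each of 13 factors was mapped once in this line, an IgG library was a control with no peak list used here, and the 13 lists together held 279955 peaks. With 1 library per factor no difference had a replicate check and no test was made. Which antibody recovered more DNA, and which library was deeper, cannot be told from positions without read counts.

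C/EBP proteins are basic leucine zipper (bZIP) factors that bind DNA as dimers with one another or with related bZIP proteins such as those of the ATF family. Cebpa is known for its need in the step from multipotent progenitors to granulocyte and monocyte progenitors. Cebpb is known for emergency granulopoiesis, macrophage genes, the acute phase response and adipocyte differentiation, and both recognise nearly the same palindromic DNA sequence.

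Promoter sequence was read where a peak midpoint fell between 250 bases before and 50 bases after a RefSeq start site. The letters below are the 250 bases before the start, 5′ to 3′ on the strand of the gene, from RefSeq on GRCm38.p6, the build of the peaks. Capitals mark matches on either strand to TTGCNNAA (C/EBP), TGACGTCA (the cAMP response element, CRE), CCGGAAG (ETS), GAGGAAGT (the ETS form preferred by PU.1), TGTGGTT (RUNX) or CCAAT (the CCAAT box). The first 6 are promoters that hold a member, and were taken in a fixed order from the genes named below. Adgrl4 (an adhesion receptor of endothelium) and Rnd3 (an atypical small GTPase) are among the genes nearest to the most members. Hk1 (hexokinase) and Bard1 (the partner of Brca1) had no other Cebpb peak in their loci. Rag1 and Rag2 are the recombinase genes of lymphocytes.
Adgrl4, chr3:151437632-151437881, plus strand: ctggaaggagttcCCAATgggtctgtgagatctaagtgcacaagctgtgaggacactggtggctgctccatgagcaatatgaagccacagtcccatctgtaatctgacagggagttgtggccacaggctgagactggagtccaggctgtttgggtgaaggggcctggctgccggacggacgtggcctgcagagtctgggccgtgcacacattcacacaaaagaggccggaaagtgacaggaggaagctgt
Rnd3, chr2:51149112-51149361, minus strand: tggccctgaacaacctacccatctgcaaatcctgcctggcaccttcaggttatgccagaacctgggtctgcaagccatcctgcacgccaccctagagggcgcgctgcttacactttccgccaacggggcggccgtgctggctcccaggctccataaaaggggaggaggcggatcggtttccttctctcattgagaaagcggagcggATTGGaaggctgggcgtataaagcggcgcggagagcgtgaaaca
Hk1, chr10:62340422-62340671, minus strand: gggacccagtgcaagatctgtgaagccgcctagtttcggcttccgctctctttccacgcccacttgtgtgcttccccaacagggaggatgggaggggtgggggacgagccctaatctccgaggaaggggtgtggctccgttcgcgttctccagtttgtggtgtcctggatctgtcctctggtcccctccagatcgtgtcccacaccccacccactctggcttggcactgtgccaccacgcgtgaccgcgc
Bard1, chr1:71102973-71103222, minus strand: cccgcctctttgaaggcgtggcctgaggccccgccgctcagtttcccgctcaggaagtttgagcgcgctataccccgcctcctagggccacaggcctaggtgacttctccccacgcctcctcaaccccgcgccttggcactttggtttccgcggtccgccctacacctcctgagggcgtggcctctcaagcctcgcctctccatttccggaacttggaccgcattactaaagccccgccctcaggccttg
Rag1, chr2:101649533-101649782, minus strand: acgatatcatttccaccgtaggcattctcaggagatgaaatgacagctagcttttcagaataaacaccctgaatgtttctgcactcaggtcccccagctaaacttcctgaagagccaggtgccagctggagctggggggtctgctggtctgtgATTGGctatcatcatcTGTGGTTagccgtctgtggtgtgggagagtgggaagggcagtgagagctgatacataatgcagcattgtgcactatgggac
Rag2, chr2:101624462-101624711, plus strand: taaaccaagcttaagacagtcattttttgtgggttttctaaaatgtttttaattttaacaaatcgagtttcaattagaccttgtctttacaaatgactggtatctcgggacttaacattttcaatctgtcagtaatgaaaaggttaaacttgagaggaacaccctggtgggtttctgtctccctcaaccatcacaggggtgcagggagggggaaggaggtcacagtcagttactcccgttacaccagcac
None of these 6 runs held a C/EBP match. Adgrl4, Rnd3 and Rag1 each held 1 CCAAT match, written ATTGG on the other strand in Rnd3 and Rag1, and Rag1 also held 1 RUNX match. The runs of Hk1, Bard1 and Rag2 held no match to the 6 motifs. The midpoint of the Rag2 peak lay past the start site, outside the printed letters. For comparison, the next 3 are the promoters that hold the earliest lines of the Cebpb file, all of which overlapped Cebpa. They were chosen after their values were seen.
Dclre1c, chr2:3423881-3424130, plus strand: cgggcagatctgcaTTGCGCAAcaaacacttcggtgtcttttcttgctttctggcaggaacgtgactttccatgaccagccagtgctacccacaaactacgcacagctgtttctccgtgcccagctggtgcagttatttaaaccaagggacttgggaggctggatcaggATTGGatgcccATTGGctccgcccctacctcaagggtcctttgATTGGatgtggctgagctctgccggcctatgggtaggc
Clec12a, chr6:129349994-129350243, plus strand: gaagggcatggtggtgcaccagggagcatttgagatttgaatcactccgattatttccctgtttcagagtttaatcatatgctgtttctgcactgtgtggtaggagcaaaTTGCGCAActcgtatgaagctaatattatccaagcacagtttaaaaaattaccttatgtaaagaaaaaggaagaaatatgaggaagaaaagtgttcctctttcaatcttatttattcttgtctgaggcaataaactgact
Ptgs2os2, chr1:150164949-150165198, minus strand: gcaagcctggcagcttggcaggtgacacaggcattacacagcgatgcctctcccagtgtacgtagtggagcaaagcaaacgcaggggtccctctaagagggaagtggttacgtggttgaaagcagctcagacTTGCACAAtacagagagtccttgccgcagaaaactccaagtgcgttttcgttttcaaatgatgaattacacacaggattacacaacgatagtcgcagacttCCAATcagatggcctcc
Each of these 3 held 1 C/EBP match, as TTGCGCAA in Dclre1c (a nuclease of V(D)J recombination) and Clec12a (a myeloid lectin receptor). In the noncoding gene Ptgs2os2 it read TTGCACAA. Their peaks overlapped 9, 8 and 7 of the other 11 factors, whereas the member peaks at Adgrl4, Hk1 and Bard1 overlapped the same 5 (Erg, Fli1, Lmo2, Runx1 and Spi1). The member at Rag1 overlapped Lmo2, Runx1 and Tal1, that at Rag2 overlapped Lmo2, Spi1 and Tal1, and that at Rnd3 overlapped Lmo2. A match is a description of the letters, not a bound site.

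The 6 member promoters stood in blocks 6 to 10 of 10 equal blocks of lines of the Cebpb file and the other 3 in block 1, so these 9 show letters and support no contrast. Values over all promoters follow. Of 32619 windows of 300 bp (250 before and 50 after the start), 689 windows of 653 genes held a member midpoint and 1693 held the midpoint of another Cebpb peak. The C/EBP motif was present in 85 of the member windows, or 12.3% (9.97 to 15.0), beside 10.9% of all windows. Of the windows with another Cebpb peak 25.6% (23.5 to 27.7) held it. The member windows thus carried the motif at close to the share found over all promoters. The match also lay further from the peak midpoint. Among the 588 members in windows, 7.65% had a match within 50 bp of the midpoint, against 20.9% of the 1475 other peaks, and the median distance of a match was 38.5 bp against 11 bp.

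Place in the file, described below, moved with this value. Within the first 50% of the lines 10.7% of 75 member windows (4.72 to 19.9) held the motif, against 30.6% of 1009 others (27.8 to 33.6). Within the second 50% it was 12.5% of 614 (10.0 to 15.4) against 18.1% of 684 (15.3 to 21.2), a smaller gap whose intervals just overlap. The gap in matches within 50 bp of the midpoint was also smaller there. In the first 50% it was 5.17% of 58 members against 26.2% of 889 other peaks. In the second 50% it was 7.92% of 530 (5.77 to 10.56) against 12.97% of 586 (10.36 to 15.96), with overlapping intervals. Median distances of a match in the second 50% were 38 bp and 27.5 bp. Windows that held a Cebpa peak without Cebpb, and no Cebpb midpoint, had the C/EBP motif in 7.48% of 615 (5.53 to 9.85), so the low share was not limited to members.

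Other motifs went in different directions. The ETS motif CCGGAAG was found in 27.9% of member windows (24.5 to 31.4), 19.8% of the other Cebpb windows (18 to 21.8) and 8.92% of all windows. Within the second 50% of the lines that was 28.0% against 23.4%, with overlapping intervals. The CCAAT box, bound by NF-Y, was found in 46.9% of member windows, 41.6% of the others and 37.6% of all. Member windows were also the richer in G and C, with a median of 59.7% against 57.0%, and in CpG, with a median of 20 against 18, beside 53.0% and 7 for all windows. Windows that held a Cebpa peak without Cebpb had the ETS motif in 24.7% (21.4 to 28.3) and the CCAAT box in 35.3% (31.5 to 39.2). Their medians were 62.7% for G and C and 27 for CpG. A high ETS share and high G and C were thus not limited to members. Base composition changes how often a motif occurs, and its part in these shares was not tested.

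TGACGCAA, a hybrid of a CRE and a C/EBP arm, stood in 1.60% of member windows (0.800 to 2.84) and in 5.32% of the others (4.30 to 6.49), against 0.487% of all. In the rest it was nearly limited to the first 50% of the lines, at 8.42% against 0.731% in the second 50%, where members had 1.47%. The composite element of C/EBP and ATF proteins, TGATGNAAT, stood in 2 member windows (0.290%), in 1.95% of the others and in 0.972% of all. The CRE itself was found in 5.95% of member windows, 4.49% of the others and 1.80% of all. Windows that held a Cebpa peak without Cebpb had it in 7.97% (5.95 to 10.4). The intervals of members and others overlapped for the CRE, AP-1 (TGANTCA), the PU.1 form of ETS, RUNX, the GATA motif, searched as AGATAA, the E-box (CAGCTG) and the CCAAT box. All 11 motifs were searched on both strands, and 1 stretch of letters can count for more than 1 motif.

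**Figure D1:**
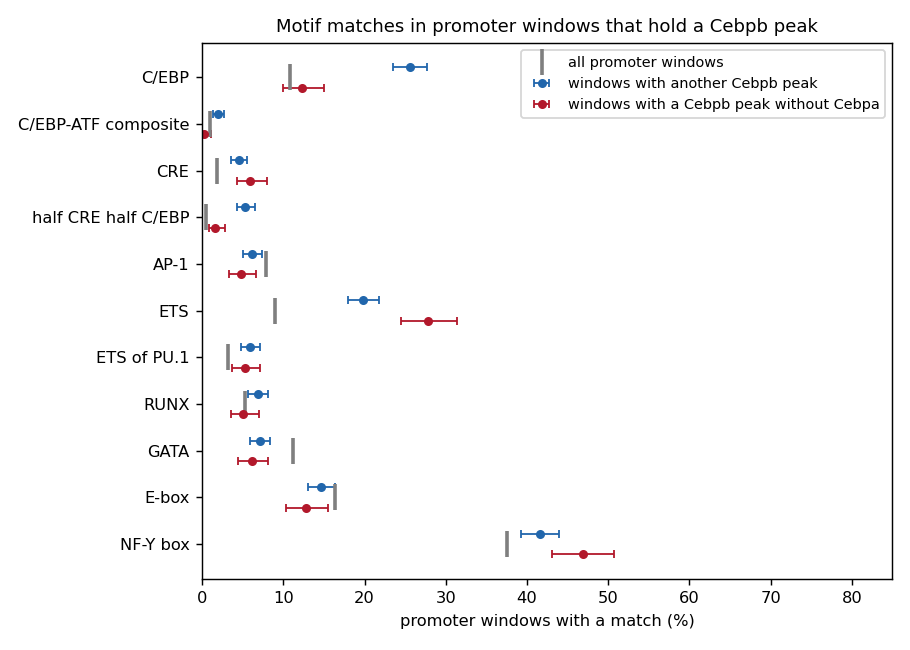
Share of 300 bp promoter windows (x axis, percent) with a match to each of 11 motifs (rows), for windows holding a Cebpb peak without Cebpa (red), another Cebpb peak (blue) and all windows (grey mark), with bars for 95% intervals. The C/EBP row shows 12.3% in red beside 25.6% in blue, and the ETS row 27.9% beside 19.8%; the row NF-Y box is the CCAAT box.

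Members were concentrated at the end of the Cebpb file. What the order of the lines means is not stated. In 10 equal blocks of lines the share without Cebpa rose at each step, from 0.238% in block 1 (9 of 3780 peaks) to 10.7% in block 5 and 62.6% in block 10 (2365 of 3778). The first 50% of the lines held 626 members (3.31%) and the second 50% held 8290 (43.9%), which was 93.0% of all members. The mirror set, 6187 Cebpa peaks that overlapped no Cebpb peak (17.6% of 35064), rose in the same way along the Cebpa file, from 0.0285% to 53.6%. Values for the rest are therefore also given below weighted to the blocks the members came from.

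Members early in the file lay close to Cebpa peaks. The nearest Cebpa midpoint was a median of 8906 bp from a member, with the middle 50% between 2680 and 25063 bp. For the 76 members of the first 3 blocks the median was 994 bp, and 59 of them (77.6%) had a Cebpa midpoint within 2 kb, as did all 9 of block 1. In block 10 only 18.6% did. At the border set by the rule, the 46 peaks just outside, with 1 to 50 bp in common with Cebpa, overlapped a mean of 3.35 ± 2.69 other factors (SD). The 33 members just inside, with midpoints 400 to 450 bp apart, overlapped a mean of 2.06 ± 2.11. The shares without other factors, 17.4% (7.82 to 31.4) and 30.3% (15.6 to 48.7), had overlapping intervals. Peaks with 200 bp or more in common with Cebpa had a mean of 2.44 ± 2.87.

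**Figure D2:**
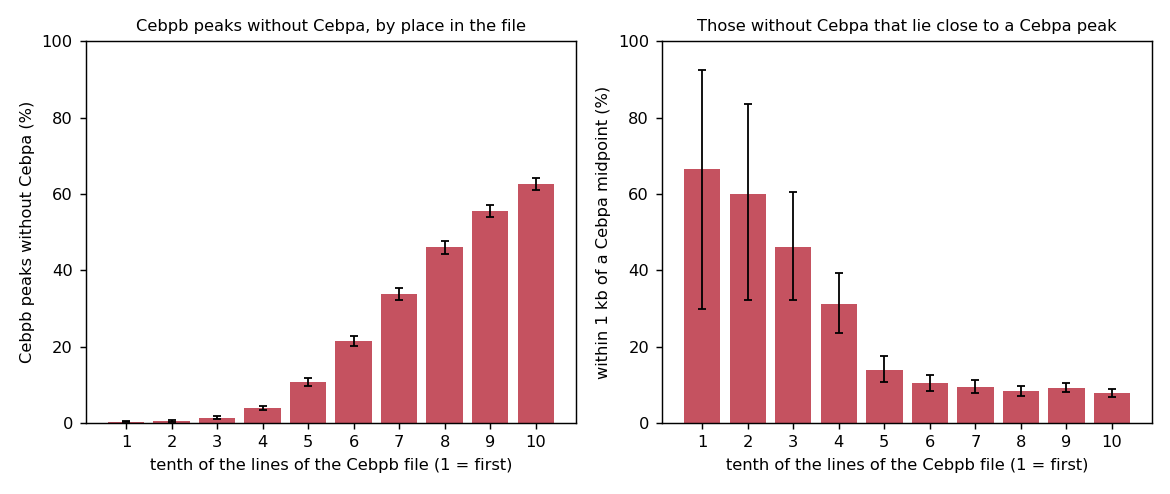
Left, share of Cebpb peaks without Cebpa (y axis, percent) in each of 10 equal blocks of lines of the Cebpb file (x axis). Right, share of those peaks with a Cebpa midpoint within 1 kb (y axis, percent). Bars are shares and whiskers are 95% intervals; the left panel rises from 0.238% to 62.6% and the right panel falls from 66.7% (9 peaks) to 7.82%.

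The other 11 lists were not used by the rule. A peak was co-bound by a factor where it overlapped a peak of that factor by 1 bp or more. Of the members 48.0% (47.0 to 49.1) were co-bound by any of the 11, against 63.2% of the rest (62.6 to 63.7) and 53.3% of the rest after weighting. Members without any of the 11 numbered 4632 (52.0%), where 40.4% of all Cebpb peaks were without. The mean number of factors was 1.42 ± 2.12 (SD over 8916 peaks of 1 library) for members and 2.45 ± 2.87 for the rest. The mirror set, Cebpa without Cebpb, was close to the members with 1.31 ± 1.97.

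Among the ETS factors, Spi1 (PU.1), a master regulator of myeloid and B lymphoid cells, was the most frequent partner. It overlapped 3137 members or 35.2%, against 44.6% of all Cebpb peaks, 47.5% of the rest and 40.6% of the weighted rest. Spi1 also had the longest of the 11 lists, with 76378 peaks, against 26738 for Lmo2, 22034 for Fli1 and 9014 for Erg. Shares of different factors were not adjusted for list length. Fli1, an ETS factor of stem cells and megakaryocytes, overlapped 20.3%, against 29.7% of all, 32.6% of the rest and 25.1% of the weighted rest. Its relative Erg overlapped 9.57%, against 14.9% of all, 16.5% of the rest and 11.6% of the weighted rest. Each of the 3 was thus less frequent at members, and the gap was smaller after weighting.

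Tal1, Lyl1 and Lmo2 were also less frequent at members. Lmo2, a bridging protein that joins basic helix-loop-helix factors to GATA proteins, overlapped 23.2% of members, 35.5% of all Cebpb peaks, 39.3% of the rest and 29.2% of the weighted rest. For Tal1 the values were 12%, 22.7%, 26.0% and 17.4%. For its relative Lyl1 they were 7.62%, 16.0%, 18.6% and 11.7%. All 3 together overlapped 6.65% of members, against 17.4% of the rest and 10.6% of the weighted rest. By contrast, Fli1 without Tal1 and Lyl1 stood at 11.5% of both members and rest.

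Meis1, a homeobox partner of Hox proteins, overlapped 6.38% of members, 13.4% of all Cebpb peaks, 15.6% of the rest and 10.1% of the weighted rest. Members over weighted rest gave a ratio of 0.634 for Meis1 and 0.649 for Lyl1, the lowest of the 11. The repressors Gfi1 and Gfi1b overlapped 7.05% and 6.33% of members, 12.8% and 10.8% of all, and 9.32% and 7.97% of the weighted rest. Runx1, which pairs with Cbfb, overlapped 12.9%, against 18.7% of all, 20.5% of the rest and 14% of the weighted rest. Its ratio over the weighted rest, 0.920, was the nearest to 1 among the factors less frequent at members.

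Over the whole list, Gata2 was the only factor whose share was not lower at members. It overlapped 148 members, 1.66% (1.41 to 1.95), against 1.57% of all Cebpb peaks, 1.55% of the rest (1.41 to 1.70) and 1.04% of the weighted rest. Within the first 50% of the lines 4.95% of members (3.39 to 6.96) and 1.78% of the rest (1.60 to 1.99) were co-bound by Gata2. In the second 50% the shares were 1.41% and 1.14%, with overlapping intervals. Erg and Runx1 also lost their gap in the first 50%, where Erg overlapped 19.2% of members and 19.1% of the rest and Runx1 26.0% and 24.1%. The other 8 factors were less frequent at members in both parts of the file.

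**Figure D3:**
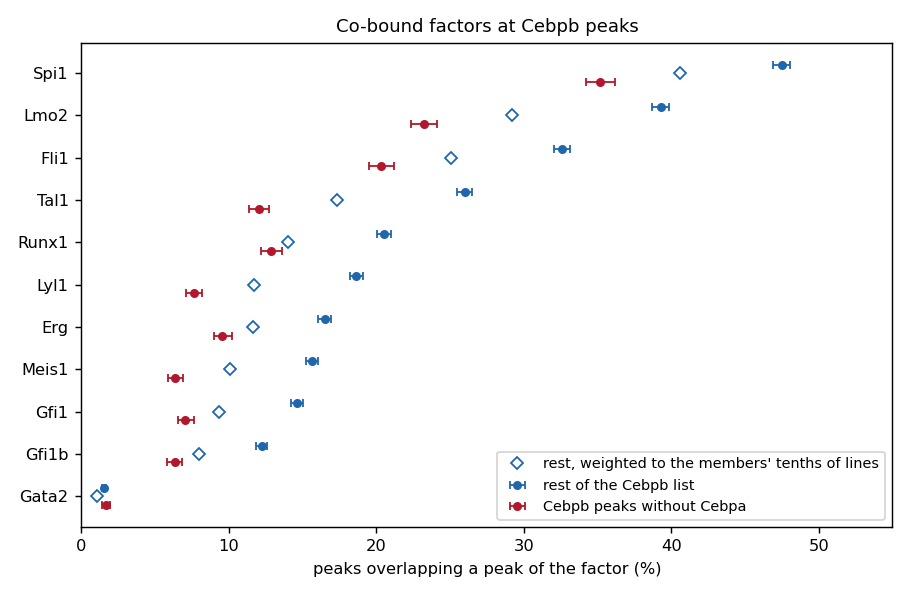
Share of peaks overlapping each of 11 other factors (x axis, percent) for Cebpb peaks without Cebpa (red), the rest of the Cebpb list (blue) and the rest weighted to the same blocks of lines (open diamonds), with bars for 95% intervals. Red points lie left of blue ones for 10 factors, from Spi1 (35.2% and 47.5%) to Gfi1b (6.33% and 12.2%), and Gata2 lies at 1.66% and 1.55%.

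Densely bound peaks were less often members, by a smaller margin after weighting. Members with 5 or more factors were 11%, against 23.1% of the rest and 15.5% of the weighted rest, and those with 8 or more were 2.40%, against 8.91% and 4.23%. Without weighting, the share of Cebpb peaks without Cebpa was 30.3% among those with no other factor, 24.1% with 1, 17.8% with 5, 9.43% with 8 and 3.49% with 10 of the other factors. None of the 40 Cebpb peaks with all 11 was a member, which allows a share of up to 8.81%. Where members had a single partner, that partner was Spi1, the factor with the longest list, in 1052 of 1574. Spi1 alone marked 11.8% of members and 11.5% of the rest, so this combination did not separate them. Next came Fli1 with Spi1 (182 members) and Lmo2 alone (157), among 410 combinations seen.

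The 20 members with 10 factors were at the other extreme. The 5 of them nearest to a gene boundary each overlapped every factor but Gata2. At chr10:83183998-83184397 (mm10, as all coordinates here) the peak lay inside Chst11, a chondroitin sulfotransferase gene, 11.7 kb from its boundary. The peak at chr1:24572730-24573129 lay inside Col19a1, a collagen gene, and had a Cebpa midpoint only 669 bp away. The other 3 lay outside genes, 15.9 kb from Camk2g, 17.6 kb from Zbtb10 and 18.7 kb from Fgd2. Exons and introns were not told apart.

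Members lay more often at start sites than the rest. Start sites came from the RefSeq promoter table, which covers 17274 of 21631 protein-coding genes and none on chromosome 18, whose peaks were left out of these shares. Of 8658 members 1149 had the midpoint within 1 kb of a start site, 13.3% (12.6 to 14), where 10.4% of all Cebpb peaks did. The share was 9.56% in the rest (9.22 to 9.91) and 9.92% in the weighted rest. It was 15.1% against 9.33% in the first 50% of the lines and 13.1% against 9.97% in the second. The mirror set of Cebpa peaks without Cebpb had 13.2%. With gene boundaries in place of start sites, which uses every gene, the shares were 16.1% and 11.8%.

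Position relative to gene bodies and gene deserts differed less than position at start sites. Members lay inside protein-coding genes in 53.7% of cases (52.7 to 54.7) and the rest in 53.1% (52.5 to 53.7). At 50 kb or more from any protein-coding gene lay 13.8% of members and 14.5% of the rest. By chromosome, the share of Cebpb peaks without Cebpa ran from 21.1% on chromosome 15 to 25.1% on chromosome 6. Members were, however, more often within 1 kb of another Cebpb peak, at 9.45% (8.86 to 10.1) against 5.67% of the rest (5.40 to 5.94). These shares were not weighted to the blocks of lines. In addition, 865 members (9.70%) had a Cebpa midpoint within 1 kb, so the neighbour counted can be a Cebpb peak that overlapped Cebpa. How often it was one was not tested.

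The difference at start sites appeared in the peaks with partners. Of members without other factors 6.61% (5.90 to 7.38) lay at a start site, as did 6.34% of the rest without other factors (5.88 to 6.83). With 1 to 3 factors the shares were 20.8% and 13.3%, with 4 to 6 they were 24.6% and 13.1%, and with 7 or more 7.99% and 4.80%, the last with intervals that just overlap (5.49 to 11.1 and 4.13 to 5.53). Among members co-bound by Gata2, 56.2% lay at a start site (47.7 to 64.4), against 24.5% of the rest with Gata2. For Runx1 the shares were 32.4% and 14.7%, for Erg 30.5% and 13.9%, and for Tal1 4.79% and 4.08%.

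**Figure D4:**
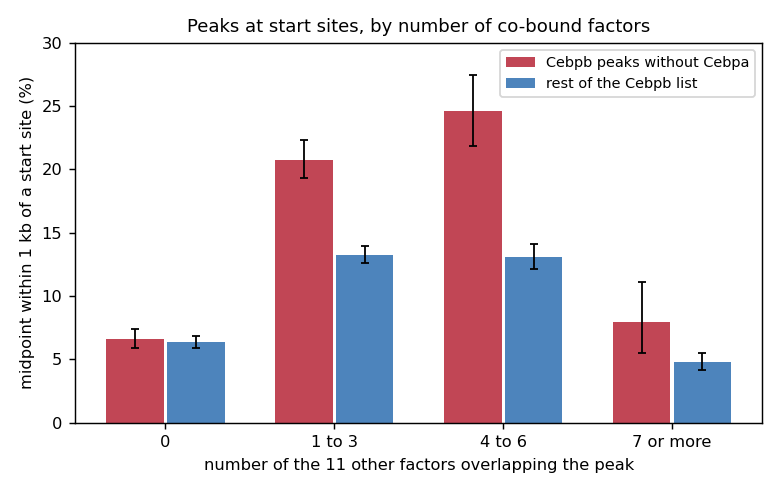
Share of Cebpb peaks with the midpoint within 1 kb of a start site (y axis, percent) by the number of other factors overlapping the peak (x axis), for peaks without Cebpa (red) and the rest (blue), with whiskers for 95% intervals. The bars are level without other factors (6.61% and 6.34%) and apart with 4 to 6 factors (24.6% and 13.1%).

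At start sites, members had at least 1 partner about as often as the rest, but had 5 or more less often (13.8% against 18.7%). Within 1 kb of a start site any of the 11 factors overlapped 74.2% of members (71.5 to 76.7) and 75.6% of the rest (74.0 to 77.2), and Runx1 overlapped 31.8% and 31.5%. Further away the shares with any factor were 44.1% and 61.9%, and with Runx1 10.1% and 19.4%. Tal1 was less frequent at members in both places, with 4.35% against 11.1% at start sites and 13.2% against 27.6% further away. Lyl1 (3.48% against 9.37%), Meis1 (2.52% against 6.35%) and Gfi1 (10.4% against 15.3%) were also less frequent at members at start sites. Gata2 overlapped 7.14% of members and 3.96% of the rest at start sites but 0.852% and 1.29% further away.

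Some members sat on a gene boundary with no other factor. The 5 nearest to one lay at Synpo2 (an actin-binding protein), Arl5a (a small GTPase), Pgm2l1, Nipsnap3a and Pgam1 (phosphoglycerate mutase of glycolysis), each with its midpoint at most 0.004 kb from the boundary. The peak at Nipsnap3a was the only one of them in the first 50% of the lines (block 4) and had a Cebpa midpoint 785 bp away. At Arl5a the nearest was 30614 bp away. A boundary can be either end of a gene. The peak at Pgam1 lay 6.80 kb from the nearest start site used here, and that at Pgm2l1 0.332 kb.

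By nearest protein-coding gene, members were spread over 5590 genes, 25.8% of 21631, and 3746 of these had 1 member. Only 178 had 5 or more. The 20 genes with the most are described here by that number, which chose them. Pde4d, a cAMP phosphodiesterase with a gene body of 1302 kb, was nearest to 17 members among 62 Cebpb peaks, and 16 of the 17 lay inside it. The ephrin gene Efna5 had 15 of 62, the zinc finger gene Zfp608 14 of 60, and Pik3r1, which encodes the regulatory subunit of PI3 kinase, 13 of 41. With 12 each followed Zfp36l2 (an RNA-binding protein that destabilises mRNA), Adgrl4, Lpp and Tbl1xr1.

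As a share of the Cebpb peaks nearest to the same gene, members made up 18.6% to 52.6% at the 20 genes nearest to the most members, beside 23.6% of the whole list. Runx1 itself had 11 of 59 (18.6%) and the coactivator gene Cited2 11 of 50 (22%). Shares were higher at Rnd3 (10 of 19, 52.6%), the Krüppel-like factor gene Klf6 (10 of 24, 41.7%) and Zfp36l2 (12 of 30, 40.0%). All 12 members at Zfp36l2 overlapped another factor, with a mean of 3.08 ± 1.68 (SD over the 12), whereas 8 of 12 at Adgrl4 and 8 of 9 at Sugct overlapped none. Gata3, a regulator of T cells, was nearest to 10 members, but the closest lay 139 kb away. Slc8a1 also had 10, and Thap1, Irf2bp2, Angpt1, Gse1 and Mllt3 had 9 each.

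A locus was taken as the gene with 50 kb either side. It held a member for 10653 genes, 49.2% of all. Of the 16338 genes with a Cebpb peak in the locus, 1011 had members only, a number not adjusted for the Cebpb peaks per locus. Among those named, the hexokinase gene Hk1 had the most, with 5 of 5, all inside the gene, none in the first 50% of the lines and 3 without other factors. The splicing factor gene Tra2b had 4 of 4, all without other factors. Bard1 had 3 of 3, Bcan 3 of 3, Lmo7 3 of 3, Tenm3 3 of 3 and Bicd1 4 of 4. Pdcd1, which encodes the receptor PD-1, and Ankrd50 had 2 of 2 in the locus, and Fat4 had 1 of 1. By nearest gene, which takes in peaks beyond the locus, members were 5 of 11 at Pdcd1, 5 of 16 at Ankrd50 and 6 of 16 at Fat4.

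In the loci of the C/EBP family 12 of 45 Cebpb peaks lacked Cebpa (26.7%, 14.6 to 41.9), close to the 23.6% of the whole list. At least 1 member lay in 6 of the 7 loci, where 49.2% of all loci and 65.2% of loci with a Cebpb peak held one. At Cebpb 2 of 9 were members. One, at chr2:167688807-167689206, lay inside the gene 0.092 kb from its boundary, overlapped Spi1 and had a Cebpa midpoint 1136 bp away. At Cebpa 2 of 9 were members, 6.08 and 31.4 kb above the gene (towards higher coordinates), with Cebpa midpoints 920 and 892 bp away. Cebpe, needed for late granulocyte maturation, had 3 of 5, and 1 of them overlapped 6 factors 4.33 kb below the gene (towards lower coordinates). Cebpd had 1 of 3, 0.531 kb below the gene with Fli1, Lmo2, Runx1 and Spi1. Ddit3 (CHOP) had 2 of 9 and Cebpz 2 of 6, each of these 4 nearer to another gene. Cebpz was counted in this list by its name but is not a bZIP factor. Cebpg had none among 4.

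Among the 32 genes of a list of bZIP partners, 57 of 214 peaks lacked Cebpa (26.6%, 20.8 to 33.1), an interval that holds the overall 23.6%. A member lay in 25 of the 32 loci (78.1%, against 49.2% of all loci). Of the 31 loci with a Cebpb peak 80.6% held a member, against 65.2% of all loci with a Cebpb peak. Such shares of loci were not adjusted for the number of Cebpb peaks per locus, for this or any other list. Hlf, a factor of stem cells, had 4 of 7, Junb 4 of 10 and Atf6 5 of 18. Atf2 had 3 of 3, though each lay nearer to another gene. Atf4 had none among 2 and Fos none among 10. In the loci of the 13 assayed factors 38 of 164 peaks lacked Cebpa (23.2%, 16.9 to 30.4), close to the 23.6% of the whole list. Members lay in 10 of these 13 loci (76.9%, against 49.2% of all). All 13 had a Cebpb peak, and among all loci with one 65.2% held a member. Erg led with 8 of 22, before Runx1 with 7 of 31 and Meis1 with 5 of 15. Lyl1 had 4 of 13, Spi1 3 of 9 and Lmo2 3 of 16. Fli1 and Gfi1 had 2 each, while Gata2, Gfi1b and Tal1 had none among 7, 6 and 4 peaks.

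Inside Runx1 2 members each overlapped 7 factors, while 3 of the 7 in its locus overlapped none. At Erg, 5 of 8 overlapped none and 1, at chr16:95403454-95403853, overlapped 6, Erg itself among them. These loci thus held both sparse and densely bound members.

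Over 21 gene lists the share without Cebpa was mostly close to that of the whole Cebpb list. The list of inflammatory and acute phase genes stood below it, with 16 of 156 peaks (10.3%, 5.98 to 16.1) beside 23.6%, while 12 of its 25 genes (48.0%) had a member, near the 49.2% of all protein-coding genes. All 25 had Cebpb peaks, and among all genes with Cebpb peaks 65.2% had a member. The blocks of lines of those 156 peaks alone would give 19.6%. With 100 kb in place of 50 kb either side the share was 17.9% (13.3 to 23.3), so that its interval just missed 23.6%. Its leading genes were Il10, an anti-inflammatory cytokine, with 2 of 6, Nfkbia, the inhibitor of NF-kappaB, with 2 of 7, and Nos2, which makes nitric oxide, with 2 of 7. With 21 intervals at 95%, 1 may miss the overall share by counting error alone.

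The other 20 intervals held 23.6%. Mast cell and basophil genes had 7 of 54 (13%, 5.37 to 24.9), led by Mitf, Mcpt8 and Cpa3 with 2 each. Granulocyte and monocyte genes had 38 of 152 (25%, 18.3 to 32.7), with myeloperoxidase, Mpo, at 6 of 17 and the Fc receptor Fcgr3 at 4 of 10. Stem and multipotent progenitor genes had 55 of 224 (24.6%), with the cytokine receptor Flt3 at 5 of 13 after Erg and Runx1. Lymphoid lists were near the same value, B cell genes at 27.4% (31 of 113) with Ebf1 at 6 of 20 and T cell genes at 20.8% (16 of 77) with Notch1 at 4 of 18. Rag1 and Rag2, neighbours that share a locus, each had 4 of the same 8 peaks.

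Erythroid genes had 28.4% (19 of 67), with Zfpm1 at 4 of 8 and the transferrin receptor Tfrc at 3 of 9. Megakaryocyte and platelet genes had 28.8% (21 of 73), with Nfe2 at 4 of 9 and Gp9 at 3 of 7. Housekeeping genes had 29.3% (36 of 123), with B2m at 7 of 9 and Hprt at 4 of 5. The nearest-gene rule gave none of the 7 to B2m. The member at chr2:122147392-122147791 nevertheless had its midpoint in the promoter window of B2m. Genes of the integrated stress response, in which C/EBP and ATF proteins act together, had 21.6% (37 of 171), with Herpud1 at 4 of 7 and Trib3 at 3 of 9. The tRNA synthetases, targets of that response, had 19.5% (17 of 87), led by Vars at 3 of 11.

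Lists of other tissues were no exception. Liver genes had 12 of 31 (38.7%, 21.9 to 57.8), with Tdo2 at 2 of 2, and adipocyte genes 17 of 90 (18.9%), with Agpat2 at 6 of 14. Neuron genes had 15 of 55, led by Rbfox3 at 3 of 4, and heart and skeletal muscle genes 12 of 44, led by Ryr1 at 3 of 6, both lists at 27.3%. Cell cycle genes had 23.9% (33 of 138), with Pcna at 5 of 9 and Mki67 at 4 of 10. Cytosolic ribosomal proteins had 23.3% and the mitochondrial respiratory chain 26.7%, led by Rpl32 at 3 of 7 and Sdhb at 4 of 14.

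**Figure D5:**
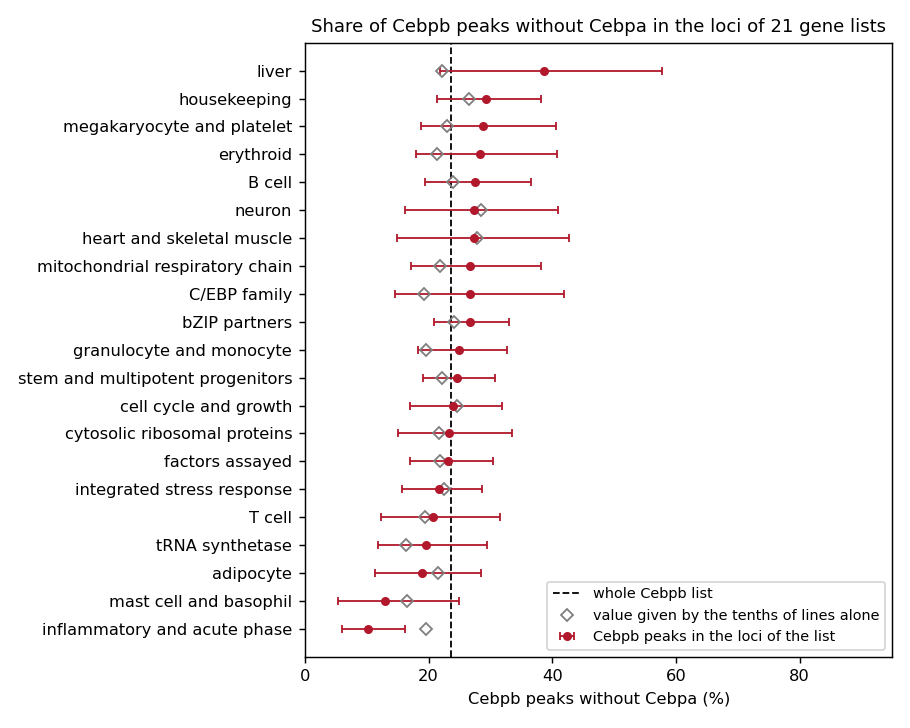
Share of the Cebpb peaks without Cebpa (x axis, percent) in the loci of 21 gene lists (rows), with bars for 95% intervals, the share given by the blocks of lines alone (grey diamonds) and the share of the whole Cebpb list (dashed line, 23.6%). The inflammatory and acute phase list, at 10.3%, is the one whose interval does not reach the dashed line.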

How the data were processed

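Each peak list the authors deposited holds positions only (chromosome, start and end), with no count, height or score, on mm10 (GRCm38) per the submitters' processing notes, which name Bowtie2, MACS2 and bedtools. Versions, thresholds and any use of the IgG library in calling were not given in the sources used here. Per the labels' protocols, cells were fixed for 10 min in 0.4% or 1% formaldehyde and chromatin was sonicated for 7 min. Every peak is 400 bp wide, which fixes how far apart overlapping midpoints can lie, and depth is unknown. Left out were 2 Cebpb lines and 1 Cebpa line off autosomes and X.

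Overlaps, distances, shares and motif counts were computed in Python 3.11.15 with pandas 2.3.3, numpy 2.4.6 and SciPy 1.17.1, and were checked on simulated peaks. The weighted rest is the mean of the rest's share in each block of lines, weighted by the members per block. Genes, start sites and promoters are from RefSeq tables of GRCm38.p6, and 423 of 425 list entries matched (1 by synonym; Ahsp and Tpsab1 did not). No genome was given, so motifs were searched in promoter windows only, and the planned start-site window uses a table that is not complete.

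Members and lists were chosen with earlier results of these data known. Genes named were the 20 nearest to the most members, the 10 nearest to the most members among genes with no other Cebpb peak in the locus, the 3 of each list with most members, all C/EBP and bZIP genes and the 13 factor genes. Regions named were the 5 members with the most factors and the 5 without factors nearest to a boundary. Up to 6 promoters of the named genes were printed, in that order. Alternatives changed the overlap, the distance to Cebpa, the part of each file used, the windows and the gene set.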

Additional observations from a re-analysis of the deposited data

How the results depend on the processing

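Of 8916 members, 626 were left when only the first 50% of the lines of the Cebpb file were used, and 20586 Cebpb peaks lacked Cebpa when only the first 50% of the Cebpa file was used. The share co-bound by any factor, 48.0%, became 57.2% and 50.5% under these settings, 47.0% for peaks over 1 kb from every Cebpa midpoint, 43.2% with an overlap of 200 bp, and 44.1% without peaks near start sites. It was below the rest under all 7 alternatives. The share near a start site, 13.3%, became 15.1% and 11.9% with the first 50% of the Cebpb and of the Cebpa file, 10.1% with a 500 bp window, 23.8% with 5 kb, 15.4% with start sites of all genes, and 16.1% with gene boundaries, and was above the rest under all 9. The C/EBP motif share, 12.3%, became 15.7% with the first 50% of the Cebpa file. Gene lists whose interval missed the overall share numbered 1 as reported and 2 for peaks over 1 kb from Cebpa and for the first 50% of the Cebpa file, where mast cell and basophil genes joined. With the first 50% of the Cebpb file the 1 list was stem and multipotent progenitors (0%, up to 2.98%) instead. Members minus rest changed sign for Erg and Runx1 in the first 50% of the Cebpb file, with intervals that hold 0. It was 0.0625 percentage points for Erg (-3.07 to 3.20) and 1.93 percentage points for Runx1 (-1.56 to 5.42). For Gata2 members minus rest was 0.11 percentage points as reported, with an interval that holds 0. It turned to -0.44 (-0.69 to -0.19) without peaks near start sites. With the first 50% of the Cebpa file it was -0.20 (-0.46 to 0.05). The inflammatory and acute phase share, 10.3%, became 17.9% with 100 kb either side, and was 0% and 41.0% with the first 50% of the Cebpb and of the Cebpa file, where 3.31% and 54.5% of all Cebpb peaks lacked Cebpa. The use of gene boundaries and of the second 50% of the lines was chosen after seeing the data.

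No paired analysis was possible because each factor has 1 library and number, so leaving out a replicate does not apply. Most members stand late in the file, the meaning of that order is not stated, and the cause of the shifts above was not tested.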
